A study of Mus musculus with 15 samples.

Results

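Replication-dependent histone genes make the bulk of the histone proteins that package newly copied DNA. They were taken here as every gene whose GENCODE M21 symbol begins with Hist1h, Hist2h, Hist3h or Hist4h, which gave 57 of the 37620 gene identifiers in the deposited counts. The annotation holds 70 such symbols, and the other 13 were absent from the deposited counts. Sums and class shares below leave these 13 out. Of the 57 members, 6 encode the linker histone H1, 18 H2A, 14 H2B, 7 H3 and 12 H4, with 3 annotated as pseudogenes among the H2A and H2B genes. The Hist1 cluster on chromosome 13 holds 45 of them, the Hist2 cluster on chromosome 3 holds 9 and the Hist3 cluster on chromosome 11 holds 3. Counts were found for 55 members, while Hist2h2aa2 and Hist2h3c1 were at 0 in all 15 libraries, and 45 members had at least 10 counts in every library.

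In dividing cells these genes are transcribed in S phase, when DNA is replicated. Each nucleosome is built on pairs of the core histones H2A, H2B, H3 and H4, and H1 binds the DNA between nucleosomes. Most histone messengers end in a conserved stem-loop in place of a poly(A) tail. The stem-loop binding protein Slbp recognises it, the U7 small nuclear ribonucleoprotein pairs with a separate element downstream of the cleavage site, and the messenger decays when replication stops. In the intestine, dividing cells are found mainly in the crypts and in lymphoid tissue, so a bulk histone level follows both the number of dividing cells and the amount of RNA in each, and these cannot be told apart in such libraries. Because libraries were depleted of ribosomal RNA, per the labels' protocols, messengers without a poly(A) tail could be counted, as was the case for Rn7sk, a small nuclear RNA without such a tail, at 8837 to 14179 CPM (read counts scaled to the size of each library).

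The 15 libraries came from the ileum of adult mice that had repeated gavages of 10 mg tamoxifen. Mice labelled mutant carried, with 2 loxP-flanked (f) alleles of Rfx6, the transgene that the labels spell Vilin-CreERT2, a recombinase switched on by tamoxifen and driven by the villin promoter of the intestinal epithelium. The 8-day groups are 3 control libraries (Rfx6f/f) and 4 mutant libraries (Rfx6f/f with the transgene), and the 3-month groups are 4 control libraries (2 Rfx6f/f and 2 Rfx6f/+) and 4 mutant libraries. All groups had received tamoxifen, the controls carried floxed alleles too, and the harvest was of ileum and not of sorted epithelium.

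Rfx6, which encodes a transcription factor of enteroendocrine cells, was read first as a check of the labels. It stood at 1.65, 1.37 and 1.58 CPM in the 8-day controls and 1.84, 2.098, 1.61 and 1.47 CPM in the libraries labelled mutant, which overlap. At 3 months it stood at 1.74, 1.59, 1.46 and 1.48 CPM in controls and 3.34, 2.30, 2.31 and 2.26 CPM in the libraries labelled mutant, where it was higher (log2 fold change 0.72 ± 0.17 SE, adjusted p = 0.0347). The whole-gene count thus did not fall with the label, and it does not separate deleted from kept exons. Directions below are therefore those of the libraries labelled mutant. The ileal genes Fabp6 (bile acid binding) and Slc10a2 (bile acid uptake) were counted in every library, at 557 to 2691 CPM and 195 to 596 CPM. Library totals ran from 30452485 to 54468586 counts at 8 days and from 26078462 to 36270306 counts at 3 months. The members took 0.137 to 0.247% of them. Each pair of libraries within a group differed beyond sampling noise (at least 11.3 chi-square per degree of freedom over genes). The labels do not say whether each library of a group is a separate animal, though Rfx6f/f and Rfx6f/+ libraries among the 3-month controls must differ in animal. The p-values therefore measure only the spread between these samples, which may be technical.

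The stem-loop is the feature that sets these messengers apart, and its sequence was read from the GENCODE M21 transcripts. The letters searched for, on the transcript strand, were GG, any 3 bases, TTTT, any base, AG, any 2 bases and CC. They were found in 37 members, and in 36 of the 41 that have at least 60 annotated bases after the stop codon. Among 44287 other coding transcripts, taken with at least 16 such bases, the share was 0.163%. Members were counted as genes and the others as single transcripts. The most frequent form was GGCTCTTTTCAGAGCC (21 members), and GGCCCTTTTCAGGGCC (6 members) was the next. Below are the stem-loops of the most counted members of each class that have one, with 5 flanking bases on either side, 5′ to 3′, written as DNA with the stem-loop in capitals. Among those shown, the H1, H2A, H2B and H3 genes share a stem, and the H4 genes share another; the loop of Hist1h2bb and Hist1h3e differs from the others.
Hist1h1c: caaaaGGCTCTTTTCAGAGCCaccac
Hist1h1d: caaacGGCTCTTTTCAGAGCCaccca
Hist1h1e: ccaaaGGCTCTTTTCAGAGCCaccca
Hist1h2ab: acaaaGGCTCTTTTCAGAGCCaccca
Hist1h2bb: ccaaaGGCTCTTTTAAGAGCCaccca
Hist1h2bf: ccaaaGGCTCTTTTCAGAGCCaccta
Hist1h3b: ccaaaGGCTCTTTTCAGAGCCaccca
Hist1h3e: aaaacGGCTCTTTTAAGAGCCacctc
Hist1h4c: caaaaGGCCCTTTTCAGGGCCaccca
Hist1h4d: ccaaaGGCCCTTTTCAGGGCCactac
Hist1h4h: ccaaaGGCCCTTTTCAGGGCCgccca
Members without a match include the abundant Hist1h1a and Hist1h1b, whose annotated transcripts end within 48 bases of the stop codon, and Hist1h2bc and the less abundant Hist2h2be, known to make polyadenylated messengers. No match says only that these letters are not in the annotated transcript.

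Members differed widely in level. The 6 most counted (Hist1h1c, Hist1h1e, Hist1h1d, Hist1h1b, Hist1h4d and Hist1h1a) held 52.3% of all member counts. Per length, in CPM per kilobase of annotated exon over the 15 libraries, the linker gene Hist1h1b was highest at 203 ± 30.6 (SD, n = 15). Next came Hist1h1c at 171 ± 22.6 and the H4 gene Hist1h4h at 146 ± 39.6, and each of these lay within the summed SDs of its neighbour in the order. The order is that of all libraries pooled and differed between groups. In the 8-day libraries labelled mutant, Hist1h1c (mean 188) lay above Hist1h1b (176), and in the 3-month controls Hist1h4h (188) lay above Hist1h1c (174). The order also depends on the annotated exon length, which was 312 bases for Hist1h4k and 7425 for Hist1h1d. Per kilobase of coding sequence, Hist1h1c (418), Hist1h4d (403) and Hist1h1e (311) lay above Hist1h1b (225). Of the core classes, the H2B gene Hist1h2bf stood at 113 ± 29.6, the H2A gene Hist1h2ak at 106 ± 31.7 and the H3 gene Hist1h3e at 53.4 ± 15.4 CPM per kilobase of annotated exon. At the low end, Hist2h2aa1 had 1 count and Hist1h4m 9 counts over all libraries together. The testis gene Hist1h2aa had 0 to 2 counts in each library, and Hist1h1t, the testis linker histone, had 3 to 18.

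Summed over the members, the 8-day controls stood at 1539, 1846 and 1802 CPM and the 8-day libraries labelled mutant at 1743, 1826, 1418 and 2201 CPM. At 3 months the sums were 2481, 2378, 2075 and 2318 CPM in controls and 1817, 1944, 1899 and 2111 CPM in the libraries labelled mutant. The genotype groups overlapped at both times, and all 3-month controls lay above all 8-day controls. Group means were 1729 ± 166 CPM (SD, n = 3), 1797 ± 322 CPM (SD, n = 4), 2313 ± 172 CPM (SD, n = 4) and 1943 ± 124 CPM (SD, n = 4), in that order. Mutant replicate 4 was the highest of the 7 libraries at 8 days and mutant replicate 3 the lowest. The H1 genes made up 45.5 to 53.2% of the sum at 8 days and 40.4 to 44.4% at 3 months, while H2A genes made up 7.08 to 8.4% and 9.97 to 11.7%.

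**Figure D1:**
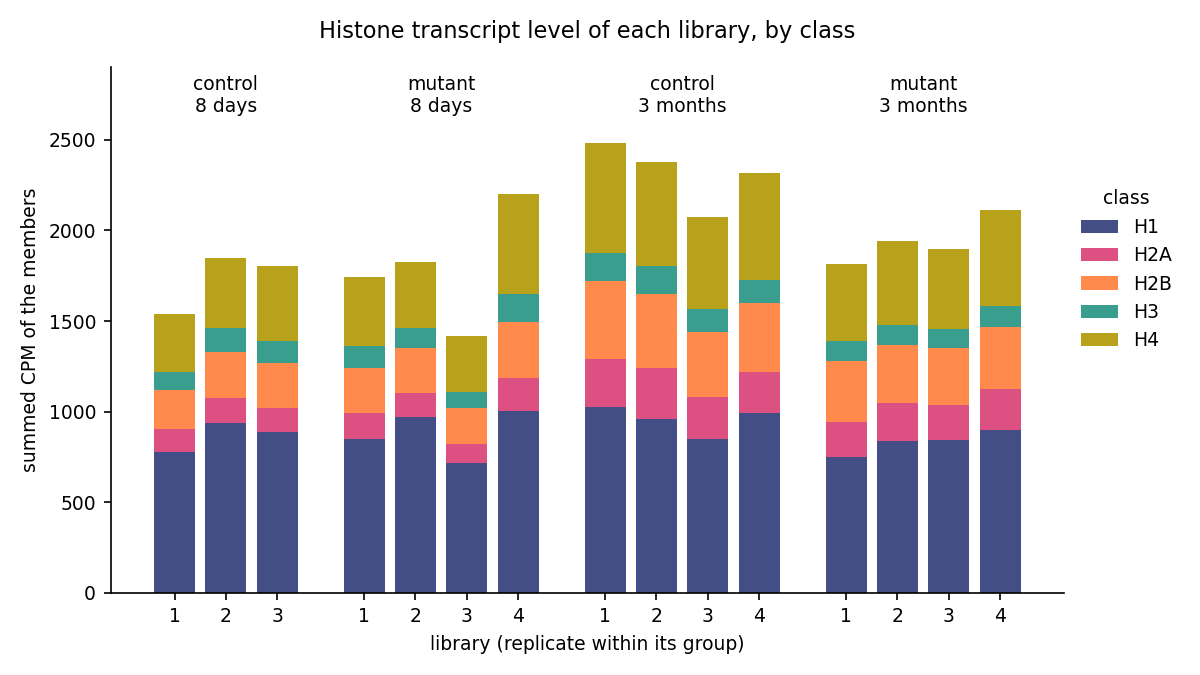
Summed CPM of the members (vertical axis) in each of the 15 libraries (horizontal axis, replicate within its group), with bars split by histone class. The 3-month controls reached 2075 to 2481 CPM, above the 1539 to 1846 CPM of the 8-day controls, and the H1 share was 45.5 to 53.2% at 8 days and 40.4 to 44.4% at 3 months.

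At 3 months, 11 histone genes, spread over all 5 classes, were lower in the libraries labelled mutant, by 0.27 to 0.48 on the log2 scale. Of the 46 members that passed the filter on low counts, 11 fell and 0 rose by edgeR's quasi-likelihood test, with p adjusted over 17085 genes and a threshold of 0.05, beside a background of 4.32% of all genes called lower and 4.96% called higher. The log2 fold change was negative in 44 of the 46, with a median of -0.29 against 0.01 over all genes tested. Every control library lay above every library labelled mutant for 18 of the 46, beside 10.6% of all genes. An unadjusted p under 0.05 was found for 32 of the 46, beside 29.4% of all genes. Those called were 1 of 5 H1 genes, 2 of 13 H2A, 4 of 12 H2B, 2 of 6 H3 and 2 of 10 H4 genes.

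The calls depended on which libraries were used. Control replicates 2 and 3 are the Rfx6f/+ libraries. With the Rfx6f/f controls alone, which leaves 2 control libraries, 0 of 48 members and 0.205% of all genes (36 of 17552) were called by edgeR, and the members' median log2 fold change was -0.32. An unadjusted p under 0.05 was found there for 28 of 48 members and 2987 of the 17552 genes. Only 1 of 46 or 47 members tested, Hist1h3b, was called without control replicate 1, without control replicate 2 or without mutant replicate 3, where 0.865, 0.818 and 1.62% of all genes were called lower. The count was 4 without mutant replicate 1 (1.65% of all genes lower), 6 without control replicate 3 (0.807%) or mutant replicate 2 (4.14%), 9 without control replicate 4 (4.29%) and 13 without mutant replicate 4 (3.27%). The fit of all 15 libraries called 3 of 48 members lower, beside 1123 of 17959 genes (6.25%), a share of members no larger than that of all genes. DESeq2 called 18 of 46 members lower, beside 8.85% of all genes. The count of members at an unadjusted p under 0.05 moved too. When 1 library was left out, it was lowest without control replicate 1 (20 of 46 members, 4151 of 17342 genes). It was highest without control replicate 3 (35 of 47 members, 4036 of 17356 genes). The fit of all 15 libraries gave 23 of 48 members and 5341 of 17959 genes.

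**Figure D2:**
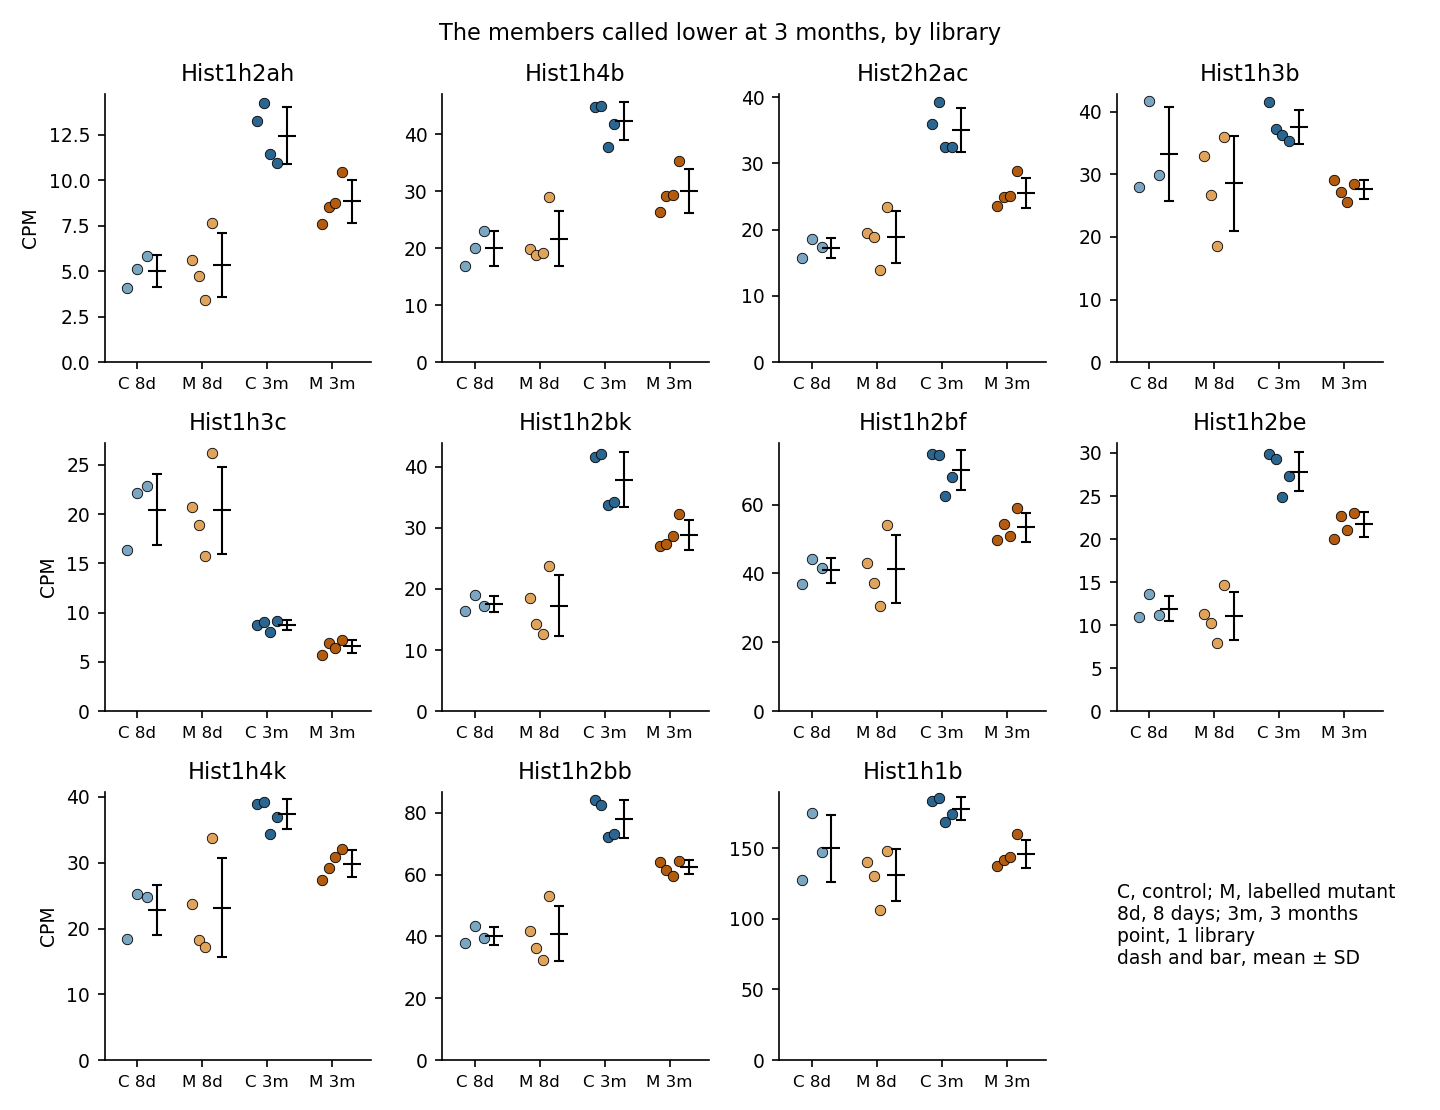
Level in CPM (vertical axes, from 0) of the 11 members called lower at 3 months, 1 panel each, in every library of the 4 groups (horizontal axes); dash and bar give the mean ± SD. In each panel the 3-month controls lie above the 3-month libraries labelled mutant without overlap, and the 8-day groups overlap.

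Among the linker histones, which bind DNA between nucleosomes, edgeR called Hist1h1b, and DESeq2 called Hist1h1b and Hist1h1a. Hist1h1b (ENSMUSG00000058773) stood at 184, 186, 168 and 174 CPM in the 3-month controls and 137, 142, 144 and 159.8 CPM in the libraries labelled mutant (log2 fold change -0.27 ± 0.06 SE, adjusted p = 0.0336). Hist1h1d did not overlap between groups but missed the threshold, at 188, 188, 162 and 173 CPM against 137, 157, 153 and 160.3 CPM (log2 fold change -0.21 ± 0.07 SE, adjusted p = 0.0953). Hist1h1a and Hist1h1e had log2 fold changes of -0.28 and -0.20 (adjusted p = 0.0803 and 0.246). Hist1h1c, the H1 gene known for polyadenylated messengers in cells that do not divide, was nearly level, at 294, 256, 237 and 297 CPM against 232, 255, 263 and 279.6 CPM (log2 fold change -0.06 ± 0.09 SE, adjusted p = 0.703).

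Of the H2A genes, Hist1h2ah (ENSMUSG00000069302) stood at 13.2, 14.2, 11.4 and 10.9 CPM in the 3-month controls and 7.58, 8.54, 8.74 and 10.5 CPM in the libraries labelled mutant (log2 fold change -0.48 ± 0.13 SE, adjusted p = 0.0462). Hist2h2ac (ENSMUSG00000068855), in the smaller cluster on chromosome 3, stood at 35.9, 39.3, 32.5 and 32.5 CPM in the 3-month controls and 23.5, 24.9, 25.0 and 28.8 CPM in the libraries labelled mutant (log2 fold change -0.44 ± 0.09 SE, adjusted p = 0.0217). Both groups were apart in these genes, with mutant replicate 4 the closest to the controls. The other 11 H2A genes tested had log2 fold changes from -0.40 (Hist1h2af) to -0.10 (Hist3h2a) and were not called by edgeR, while DESeq2 called Hist1h2ag among them. The most abundant of them, Hist1h2ak, stood at 59.3, 63.9, 53.6 and 49.5 CPM in controls and 40.1, 47.1, 41.9 and 54.4 CPM in the libraries labelled mutant, which overlap.

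Of the H2B genes, edgeR called 4 of 12 tested, the same share as the 2 of 6 H3 genes. DESeq2 called 6 H2B genes, with Hist1h2bg and Hist3h2ba added. Hist1h2bb (ENSMUSG00000075031) stood at 84.2, 82.6, 72.1 and 73.1 CPM in the 3-month controls and 64.0, 61.5, 59.5 and 64.6 CPM in the libraries labelled mutant (log2 fold change -0.31 ± 0.06 SE, adjusted p = 0.0257). Hist1h2bf (ENSMUSG00000069268) stood at 74.7, 74.5, 62.6 and 67.9 CPM in the 3-month controls and 49.6, 54.3, 50.9 and 59.0 CPM in the libraries labelled mutant (log2 fold change -0.37 ± 0.08 SE, adjusted p = 0.0261). The lowest control of each was above the highest library labelled mutant. Hist1h2bk (ENSMUSG00000062727) stood at 41.6, 42.1, 33.8 and 34.2 CPM in the 3-month controls and 27.0, 27.4, 28.7 and 32.3 CPM in the libraries labelled mutant (log2 fold change -0.38 ± 0.10 SE, adjusted p = 0.0429). Hist1h2be (ENSMUSG00000047246) stood at 29.9, 29.3, 24.9 and 27.3 CPM in the 3-month controls and 19.98, 22.7, 21.1 and 23.0 CPM in the libraries labelled mutant (log2 fold change -0.35 ± 0.08 SE, adjusted p = 0.0331). In GENCODE M21 an exon of Hist1h2be overlaps Hist1h1e on the same strand, so reads there could belong to either gene. The H2B genes known to make polyadenylated messengers stayed near 0. Hist1h2bc had 111, 88.7, 91.8 and 102 CPM against 119, 91.9, 87.2 and 91.9 CPM (log2 fold change 0.00 ± 0.11 SE, adjusted p = 0.995). Hist2h2be had a log2 fold change of -0.08 ± 0.11 SE.

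H2A and H2B genes often lie head to head, and 5 such pairs of members have starts at most 250 bases apart in the RefSeq promoter table (GRCm38.p6). Promoters were found there for 50 of the 57 members. The pair Hist1h2ah and Hist1h2bk is shown because both genes fell at 3 months, and the pair Hist1h2ae and Hist1h2bg for comparison; both were chosen after their values were seen. Each line is the whole sequence between the starts, from RefSeq, on the plus strand 5′ to 3′ (chr13:22035644-22035820 and chr13:23571221-23571399, GRCm38.p6), where capitals mark the motifs searched on both strands: ATTTGCAT (the octamer bound by Oct factors), TATAAA and CCAAT. The deposited counts carry no coordinates, and these come from the promoter table.
Hist1h2ah and Hist1h2bk: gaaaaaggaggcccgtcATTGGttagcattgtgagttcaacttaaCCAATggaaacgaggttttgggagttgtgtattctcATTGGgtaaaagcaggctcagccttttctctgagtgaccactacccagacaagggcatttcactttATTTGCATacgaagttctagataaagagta
Hist1h2ae and Hist1h2bg: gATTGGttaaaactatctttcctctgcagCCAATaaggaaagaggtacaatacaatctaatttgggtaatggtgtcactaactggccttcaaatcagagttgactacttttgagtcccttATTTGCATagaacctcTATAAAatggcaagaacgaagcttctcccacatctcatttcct
In the 300-base promoters, the octamer was found in 7 of 16 H2A and 4 of 11 H2B genes, in 0 of the 23 H1, H3 and H4 genes, and in 1.75% of 27025 RefSeq promoters. TATAAA was found in 62.0% of the 50 members against 14.2%, and CCAAT in 84.0% against 37.9%, with only 3 of 11 H4 genes holding CCAAT. A match is a description and not a site. Hist1h2ae and Hist1h2bg had log2 fold changes of -0.31 and -0.32 at 3 months and missed the threshold by edgeR (adjusted p = 0.146 and 0.057).

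The H3 genes called by edgeR were Hist1h3b and Hist1h3c, and DESeq2 called these and Hist1h3e. Hist1h3b (ENSMUSG00000069267) stood at 41.5, 37.3, 36.3 and 35.3 CPM in the 3-month controls and 29.1, 27.2, 25.6 and 28.4 CPM in the libraries labelled mutant (log2 fold change -0.43 ± 0.07 SE, adjusted p = 0.012). It was the only member called in each of the 8 fits that left out 1 library, with adjusted p from 0.0171 to 0.0387. Of 8 other fits it was called in 6, and not in the fit of all 15 libraries or with Rfx6f/f controls only (adjusted p up to 0.119), whereas Hist1h4b and Hist2h2ac were called in 7 of these 8. Hist1h3c (ENSMUSG00000069310) stood at 8.71, 9.10, 8.05 and 9.13 CPM in the 3-month controls and 5.73, 6.91, 6.43 and 7.23 CPM in the libraries labelled mutant (log2 fold change -0.40 ± 0.10 SE, adjusted p = 0.0465). The most abundant H3 gene, Hist1h3e, did not overlap between groups and missed the threshold by edgeR (log2 fold change -0.30 ± 0.10 SE, adjusted p = 0.085).

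For H4, Hist1h4b (ENSMUSG00000069266) stood at 44.8, 45.0, 37.8 and 41.9 CPM in the 3-month controls and 26.4, 29.1, 29.4 and 35.4 CPM in the libraries labelled mutant (log2 fold change -0.48 ± 0.10 SE, adjusted p = 0.0236). Hist1h4k (ENSMUSG00000064288) stood at 38.9, 39.2, 34.4 and 37.0 CPM in the 3-month controls and 27.3, 29.1, 30.8 and 32.1 CPM in the libraries labelled mutant (log2 fold change -0.31 ± 0.07 SE, adjusted p = 0.0327). In both, all 4 libraries labelled mutant were below all 4 controls. The abundant Hist1h4d did not overlap and missed the threshold by edgeR but not by DESeq2, at 161, 144, 132 and 149.6 CPM against 112, 126, 116 and 128 CPM (log2 fold change -0.27 ± 0.08 SE, adjusted p = 0.0566). Hist1h4c and Hist1h4h overlapped between groups, with log2 fold changes of -0.21 and -0.23. Hist1h4i had the largest SE among the H4 genes, at 14.5, 15.1, 13.8 and 21.8 CPM in controls and 4.34, 11.96, 9.54 and 18.9 CPM in the libraries labelled mutant (log2 fold change -0.53 ± 0.37 SE, adjusted p = 0.364). Leaving out 1 library moved its log2 fold change between -0.90 (without mutant replicate 4) and -0.27 (without mutant replicate 1).

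Summed by class at 3 months, the control and mutant means of H2A were 251 ± 24.7 CPM (SD, n = 4) and 204 ± 16.3 CPM (SD, n = 4), those of H2B 396 ± 32.0 CPM (SD, n = 4) and 330.3 ± 13.6 CPM (SD, n = 4) and those of H3 141 ± 15.5 CPM (SD, n = 4) and 109.8 ± 5.16 CPM (SD, n = 4), each without overlap. The means of H4 were 569.6 ± 41.5 CPM (SD, n = 4) and 466 ± 44.7 CPM (SD, n = 4) and those of H1 956 ± 75.5 CPM (SD, n = 4) and 833 ± 60.5 CPM (SD, n = 4), and both overlapped. Of the clusters, Hist2 on chromosome 3 stood at 113, 121, 96.3 and 102 CPM in controls and 79.4, 85.0, 82.4 and 95.6 CPM in the libraries labelled mutant, without overlap, and Hist1 on chromosome 13 at 2359, 2249, 1974 and 2211 CPM and 1731, 1855, 1813 and 2010.0 CPM. The 51 core members together stood at 1457, 1417, 1225 and 1328 CPM and 1066, 1104, 1056 and 1213 CPM, also without overlap. No test was made on these sums. The Hist3 cluster on chromosome 11, with 3 low members, stood at 8.30, 8.12, 4.52 and 4.89 CPM and 6.36, 4.29, 3.71 and 4.90 CPM, which overlap (ratio of means 0.745). Ratios of mutant to control means of the classes lay between 0.781 (H3) and 0.871 (H1).

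**Figure D3:**
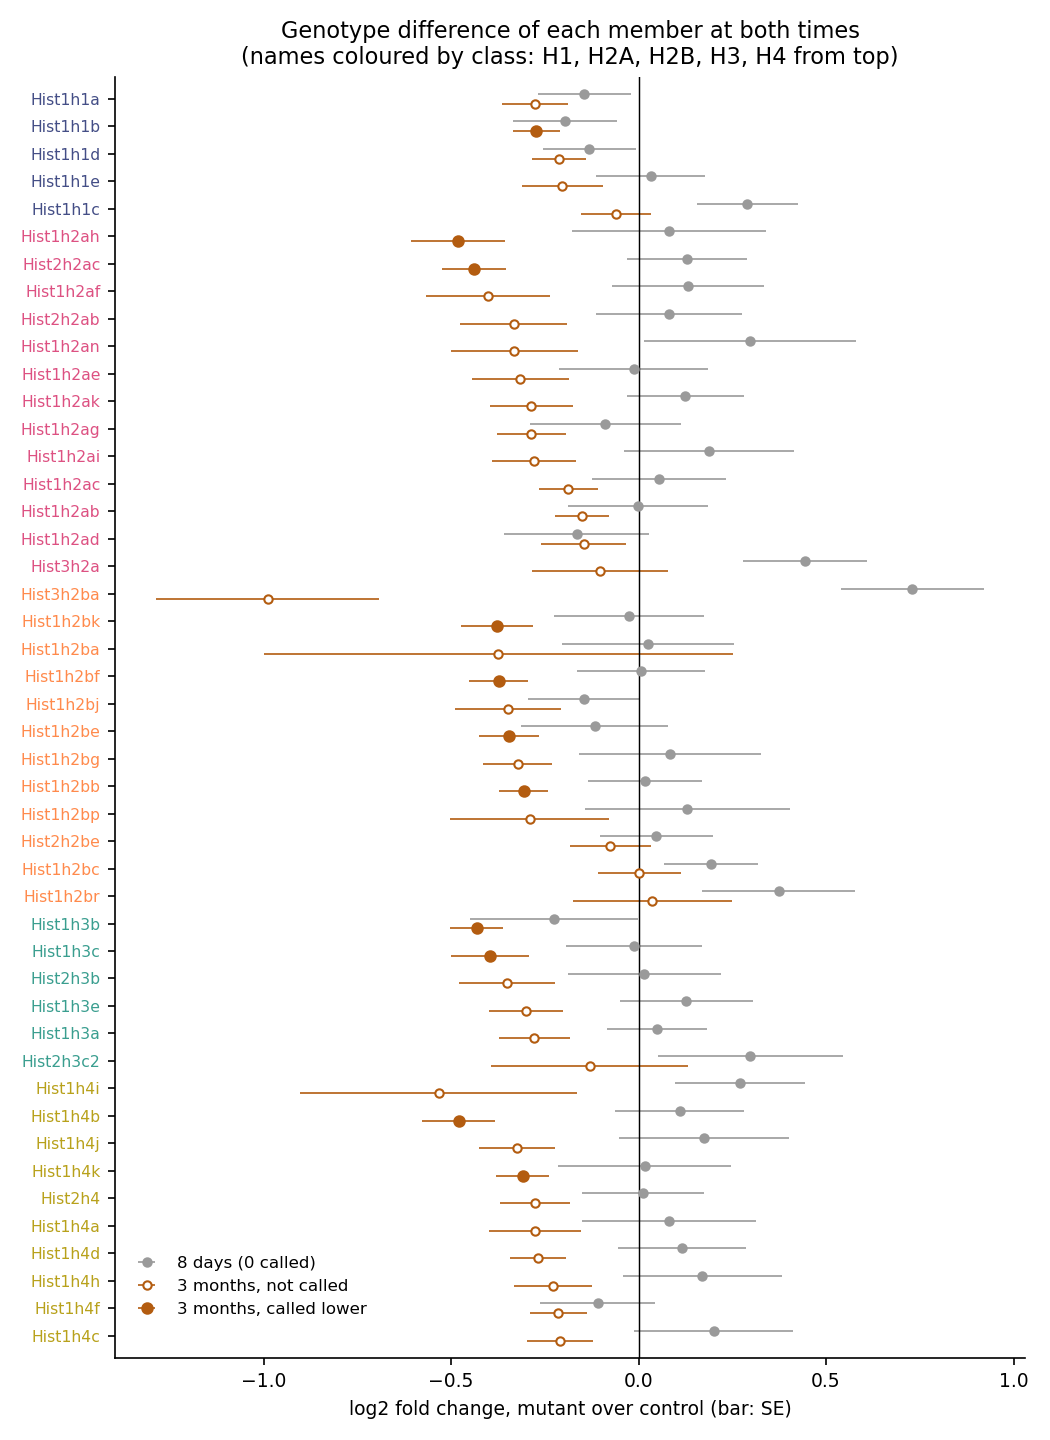
Log2 fold change of each of the 46 members tested at 3 months (horizontal axis, mutant over control, bar = SE) at 8 days (grey) and 3 months (orange, filled where called lower), in rows ordered and coloured by class. The 3-month points lie left of 0 in 44 rows, and the 8-day points lie on both sides.

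Other genes moved with this difference, and their part in it was not tested. By edgeR, of 40 genes of S phase, 3 fell and 0 rose, beside 4.32% of all genes called lower and 4.96% called higher. Their median log2 fold change was -0.22, with 38 negative. DESeq2 called 13 of them and limma-voom 6, beside 17.5% and 9.49% of all genes in either direction. Their summed level was 1401 to 1612 CPM in controls and 1176 to 1372 CPM in the libraries labelled mutant, without overlap. Those that fell were Fen1 (-0.55), Pold2 (-0.37) and Mcm6 (-0.30), which act in DNA replication. Of 30 genes of G2 and M phase, Top2a (topoisomerase) and Kif23 (a kinesin of cytokinesis) fell by edgeR (DESeq2 called 10 and limma-voom 4), with a median of -0.26 over the list and sums of 1813 to 2199 CPM against 1606 to 1889 CPM, which overlap. Mki67, a marker of dividing cells, was at 379, 393, 352 and 325 CPM against 336, 323, 373 and 381 CPM (log2 fold change -0.02 ± 0.08 SE, adjusted p = 0.89). Pcna, the replication clamp, had a log2 fold change of -0.13 (adjusted p = 0.239).

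T cell markers fell in 7 of 10 genes, with a sum of 98.8 to 127 CPM in the 3-month controls and 34.4 to 77.0 CPM in the libraries labelled mutant and a median log2 fold change of -1.25. B cell markers were called in 0 of 12 genes by edgeR, DESeq2 and limma-voom (3 at an unadjusted p under 0.05), with a median of -1.29 and sums of 146 to 332 CPM against 32.3 to 219.8 CPM. Germinal centre B cell markers were called in 0 of 9 genes by edgeR (5 at an unadjusted p under 0.05) and 3 by DESeq2 and by limma-voom, with summed levels of 73.5 to 97.6 CPM against 56.5 to 74.5 CPM. Each T and B cell marker had counts in at least 1 library. Of 10 crypt stem cell markers, Rnf43 and Sox9 rose and the median was -0.05. By edgeR, Paneth cell and smooth muscle markers were called in 0 of 8 and 0 of 10 genes (2 and 5 at an unadjusted p under 0.05; DESeq2 called 0 and 2, limma-voom 0 of each), with medians of -0.19 and 0.37. Of 12 enterocyte markers, Apoa4 (lipid transport) and Sis (sucrase) rose and Fabp6 fell, and the sums were 15276 to 19220.0 CPM in controls and 21789 to 32098 CPM in the libraries labelled mutant, without overlap. The median log2 fold change of that list was 0.00071, with 6 of 12 positive and 6 negative (range -1.44 to 3.42).

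**Figure D4:**
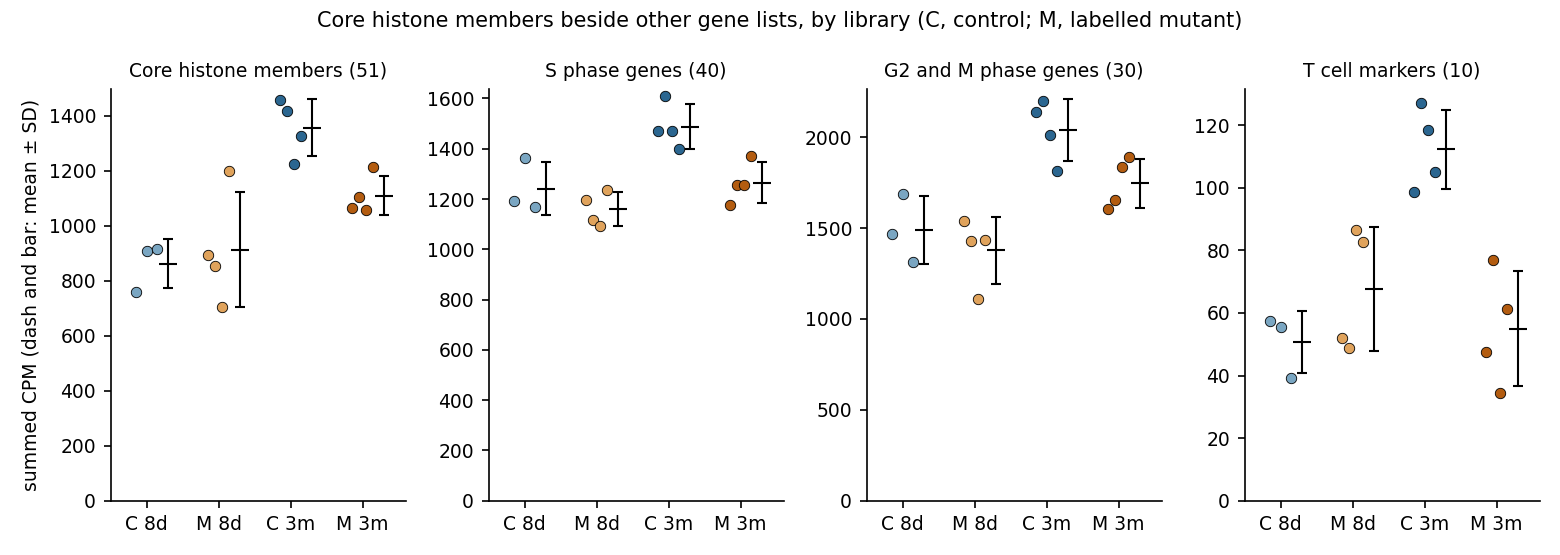
Summed CPM (vertical axes, from 0) of the 51 core histone members, 40 S phase genes, 30 G2 and M phase genes and 10 T cell markers in every library of the 4 groups (horizontal axes); dash and bar give the mean ± SD. Core histone members, S phase genes and T cell markers show no overlap between the 3-month groups, and G2 and M phase genes overlap.

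Few genes that make and handle histone messengers were called. At 3 months 4.96% of all genes were called higher and 4.32% lower by edgeR, 17.5% were called in either direction by DESeq2, and 29.4% had an unadjusted p under 0.05. Of 26 genes of histone gene regulation, 20 had a negative log2 fold change, with a median of -0.12 against 0.01 over all genes. By edgeR, 1 was called higher and 2 lower. Of these, Ccne2 (cyclin E) rose (log2 fold change 0.70 ± 0.14 SE, adjusted p = 0.0245), while Cpsf3, the nuclease that cuts histone and other messengers, and Cstf2 fell (-0.21 and -0.19). In that list 13 of 26 had an unadjusted p under 0.05 and DESeq2 called 5. The stem-loop binding protein gene Slbp stood at 62.1, 67.0, 62.2 and 57.3 CPM in controls and 55.6, 55.8, 55.9 and 57.5 CPM in the libraries labelled mutant (log2 fold change -0.13 ± 0.05 SE, adjusted p = 0.15). Npat, the coactivator of histone gene transcription, was at 32.9, 35.7, 33.5 and 32.3 CPM against 33.7, 30.4, 34.3 and 32.0 CPM (log2 fold change -0.03 ± 0.06 SE, adjusted p = 0.784). Of 21 histone chaperone genes, which carry histones to DNA, Nasp (-0.27) and Daxx (-0.29) fell and the median was -0.20, with 12 of 21 at an unadjusted p under 0.05 and 6 called by DESeq2. Of 10 listed histone variant genes that are not members, 2 were called lower, with a median of -0.17, 2 positive and 8 negative. H2afx, known for marking DNA breaks, fell from 62.8, 72.3, 59.0 and 53.2 CPM to 40.9, 45.8, 42.0 and 50.8 CPM (log2 fold change -0.45 ± 0.10 SE, adjusted p = 0.0321). H2afz had a log2 fold change of -0.32 and also fell (adjusted p = 0.0306), whereas H3f3b, a variant H3 gene, had -0.18 (adjusted p = 0.18). Of 16 other RNAs without a poly(A) tail, 0 were called at 3 months by edgeR and limma-voom (1 at an unadjusted p under 0.05) and 1 by DESeq2. Their median was -0.14 with 12 of 16 negative, and their sum was 25415 to 30004 CPM in controls and 25406 to 27753 CPM in the libraries labelled mutant.

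Within the members, the 3-month difference was set beside features of the genes. Of the 15 with a stem-loop and at most 100 annotated bases after it, 7 fell (median -0.31), against 1 of the 16 with more (median -0.27) and 3 of the 15 without a match (median -0.29). By exon length, the median was -0.32 for the 22 members under 600 bases, -0.30 for the 15 from 600 to under 1200 bases, -0.10 for the 5 from 1200 to under 2400 bases and -0.20 for the 4 that are longer. Other protein-coding genes in the same bins had medians of -0.20, -0.10, -0.07 and 0.02 (78, 453, 2263 and 11901 genes), so members lay below them in each bin. The part of length in the difference was not tested. Near-identical copies also limit single genes. In 20 of the members tested, under 50% of the 50-base stretches were unique among the transcripts, and 7 of these fell, against 4 of the 26 others. How reads that match several genes were counted is not given in the sources used here. Exons of 23 members overlap another annotated gene, 4 of the 11 that fell among them, and whether counting used the strand is likewise not given in the sources used here.

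At 8 days no member was called in either direction by edgeR (0 of 49 tested; 2 had an unadjusted p under 0.05, beside 8.8% of all genes), and DESeq2 and limma-voom also called 0. The background was 0.0915% of 17493 genes. The log2 fold change was positive in 35 of 49, with a median of 0.08. It was -0.084 without mutant replicate 4 and -0.00058 without control replicate 1. Mutant replicate 4 held the highest value for 38 of the 49 members, against 15.8% of all genes, and mutant replicate 3 held the lowest for 31, against 18.7%. The abundant linker genes followed this order only in part. Hist1h1a, Hist1h1b and Hist1h1d were highest in control replicate 2 (119, 175 and 177 CPM), and Hist1h1c was lowest in control replicate 1. Hist1h1c stood at 210.1, 246 and 261 CPM in controls and 258, 334, 246 and 334 CPM in the libraries labelled mutant (log2 fold change 0.29 ± 0.13 SE, adjusted p = 0.606). Hist1h1e stood at 203, 219 and 204 CPM and 214, 238, 156 and 248 CPM (log2 fold change 0.03 ± 0.14 SE, adjusted p = 0.984). Hist1h4b, in the core H4 class, stood at 16.9, 20.1 and 23.1 CPM and 19.9, 18.9, 19.1 and 29.0 CPM. B cell markers reached 46.1, 208, 427 and 460.1 CPM in sum in the libraries labelled mutant, in replicate order, against 42.1, 52.7 and 93.4 CPM in controls, with 0 of 12 called by edgeR, DESeq2 or limma-voom and all 12 at an unadjusted p under 0.05. S phase genes were called in 0 of 40 by these tools (6 at an unadjusted p under 0.05), with a median of -0.14. Their part in the histone levels was not tested.

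The members with an unadjusted p under 0.05 at 8 days were Hist3h2ba and Hist3h2a, neighbours in the Hist3 cluster on chromosome 11. Hist3h2a stood at 3.34, 3.74 and 4.24 CPM in controls and 4.26, 6.07, 4.86 and 5.43 CPM in the libraries labelled mutant, without overlap (log2 fold change 0.44 ± 0.16 SE, adjusted p = 0.476). Hist3h2ba stood at 0.925, 1.02 and 0.848 CPM and 1.43, 1.42, 1.46 and 1.90 CPM, also without overlap (log2 fold change 0.73 ± 0.19 SE, adjusted p = 0.443). Of all genes, 3.98% were higher without overlap at 8 days.

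Whether the genotype difference itself changed between the times was tested as an interaction. Of 48 members tested, 1 was called, Hist3h2ba, beside a background of 0.785% of 17959 genes. Its 3-month values were 1.71, 2.47, 1.11 and 1.17 CPM in controls and 1.01, 0.768, 0.571 and 0.904 CPM in the libraries labelled mutant (log2 fold change -0.99 ± 0.30 SE, adjusted p = 0.0668 by edgeR at 3 months; DESeq2 also called it, and the fit of all 15 libraries gave an adjusted p of 0.0217), the opposite direction to 8 days. The difference of the differences was -1.74 ± 0.37 SE on the log2 scale (adjusted p = 0.0487). These are low levels, from 22 to 81 counts per library. The call was lost with limma-voom (adjusted p = 0.059), with Rfx6f/f controls only (-1.55, adjusted p = 0.156), and in 11 of 15 fits that left out 1 library. Among these, leaving out control replicate 2 of 3 months gave -1.42 (adjusted p = 0.0881). The interaction was negative in 47 of 48 members, with a median of -0.39 against -0.01 over all genes. The 3-month difference enters this value. An unadjusted p under 0.05 was found for 5 of 48 members and 2973 of the 17959 genes, and DESeq2 called 1 member beside 5.66% of genes. Without mutant replicate 4 of 8 days, the member median of the interaction was -0.22. In that fit 3 of 48 members and 2449 of 17920 genes had an unadjusted p under 0.05. Without mutant replicate 3 of 8 days the median was -0.50, with 26 of 48 members and 3004 of 17845 genes under that threshold.

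The largest differences lay between the cohorts. In control libraries, 29 of 48 members were higher at 3 months than at 8 days and 2 were lower, beside 23.0% of all 17959 genes higher and 22.1% lower. The median log2 fold change was 0.74 against 0.02 over all genes. Time after tamoxifen, age, the deposited table and any handling of the cohorts cannot be told apart in this contrast. The protocols name more than 1 RNA extraction method without assigning them to samples. Classes differed in the count of calls: 0 of 5 H1, 11 of 14 H2A, 8 of 13 H2B, 1 of 6 H3 and 9 of 10 H4 genes were higher, while 1 H2B and 1 H3 gene were lower (for H1, 1 gene at an unadjusted p under 0.05 by edgeR, and 0 called by DESeq2 and limma-voom). The H1 genes spanned log2 fold changes of 0.04 to 0.25, with medians of 0.98 for H2A, 0.81 for H2B, 0.29 for H3 and 0.75 for H4. The difference between classes was not tested. In the libraries labelled mutant the cohorts lay closer in the sums over all members and over each class. Over all members, the ratio of 3-month to 8-day means was 1.08 in these libraries, with overlap, against 1.34 in controls. For the core classes together the ratios were 1.22, with overlap, and 1.57. By class they were 1.44 and 1.90 for H2A and 1.31 and 1.65 for H2B, without overlap in either genotype. For H4 they were 1.16, with overlap, and 1.53, without. For H3 they were 0.942 and 1.20 and for H1 0.943 and 1.10, all with overlap. The Hist3 cluster lay further apart in the libraries labelled mutant, at 0.622, without overlap, against 1.19 in controls, with overlap. These sums were not tested.

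The largest rise was in an H4 gene. Hist1h4i stood at 2.81, 3.13 and 3.07 CPM in the 8-day controls and 14.5, 15.1, 13.8 and 21.8 CPM in the 3-month controls (log2 fold change 2.44 ± 0.36 SE, adjusted p = 0.000138). The H2A genes Hist1h2an and Hist1h2ad followed. Hist1h2an stood at 1.88, 2.94 and 3.17 CPM in the 8-day controls and 9.08, 9.34, 8.09 and 7.27 CPM in the 3-month controls (log2 fold change 1.66 ± 0.26 SE, adjusted p = 0.000182). Hist1h2ad stood at 3.17, 3.79 and 4.19 CPM in the 8-day controls and 12.5, 11.7, 9.93 and 11.8 CPM in the 3-month controls (log2 fold change 1.62 ± 0.16 SE, adjusted p = 9.7e-06). In all of these the cohorts did not overlap. Hist1h2ah and Hist1h2ai had log2 fold changes of 1.31 and 1.30 (adjusted p = 0.000334 and 0.000139). Of the abundant genes, Hist1h2bb (0.95), Hist1h3e (0.90), Hist1h4h (0.81), Hist1h4c (0.59) and Hist1h4d (0.40) were also called higher. Against this direction went a pair of genes. Hist1h3c stood at 16.3, 22.1 and 22.9 CPM in the 8-day controls and 8.71, 9.10, 8.05 and 9.13 CPM in the 3-month controls (log2 fold change -1.23 ± 0.15 SE, adjusted p = 3.88e-05). Hist1h2br stood at 1.39, 1.37 and 1.04 CPM in the 8-day controls and 0.785, 0.580, 0.498 and 0.586 CPM in the 3-month controls (log2 fold change -1.03 ± 0.21 SE, adjusted p = 0.00113). Both were lower in every 3-month control than in any 8-day control. The linker gene Hist1h1b stood at 127, 175 and 147 CPM and 184, 186, 168 and 174 CPM and was not called (log2 fold change 0.25 ± 0.11 SE, adjusted p = 0.086). Hist1h3b, an H3 gene like Hist1h3c, was at 28.0, 41.8 and 29.96 CPM and 41.5, 37.3, 36.3 and 35.3 CPM (log2 fold change 0.18 ± 0.18 SE, adjusted p = 0.441).

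**Figure D5:**
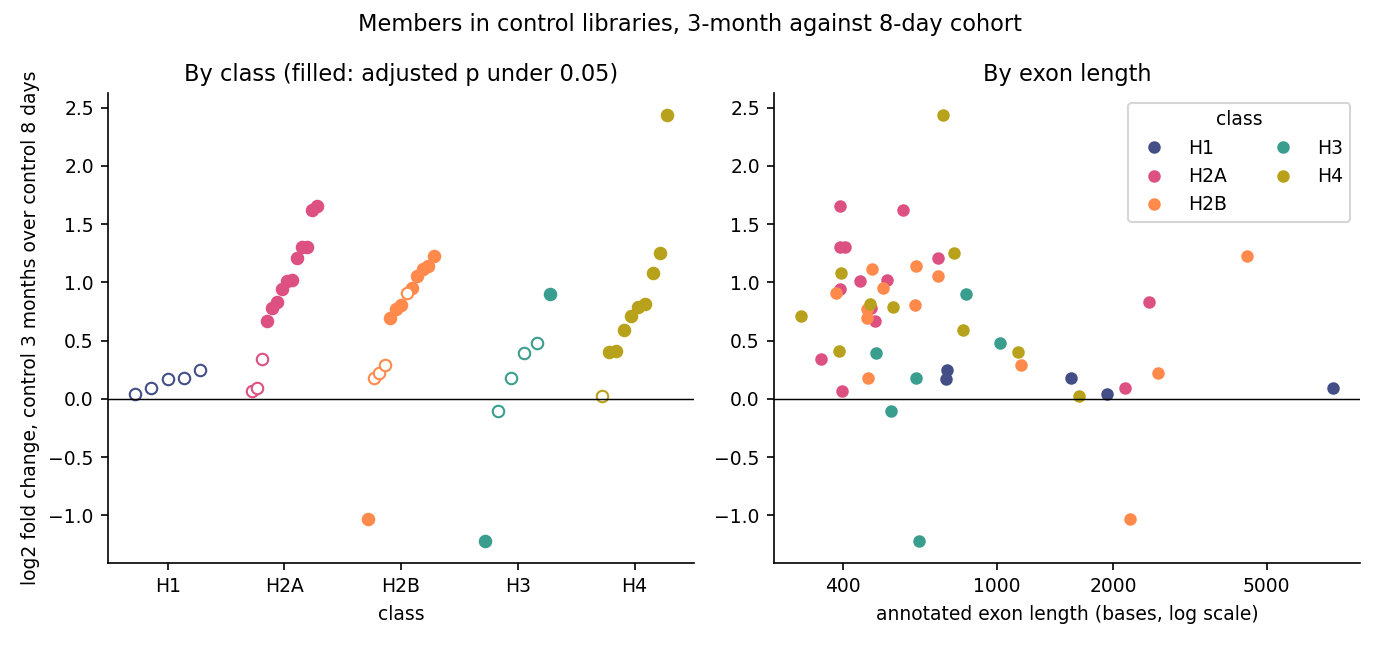
Log2 fold change of each of the 48 members tested between control libraries of 3 months and 8 days (vertical axes), by class (left, filled where the adjusted p was under 0.05) and by annotated exon length in bases on a log axis (right). H1 genes lie between 0.04 and 0.25, most H2A, H2B and H4 genes lie above that range, and Hist1h3c and Hist1h2br lie near -1.

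Other values moved with the cohorts, and their part was not tested. Of all genes, 23.0% were called higher at 3 months in controls and 22.1% lower. In the same contrast, 22 of 40 S phase genes and 21 of 30 G2 and M phase genes were called higher, with medians of 0.34 and 0.49. T cell markers were called higher in 9 of 10 genes, with a median of 1.31. Of 12 B cell markers 4 were called higher and 0 lower (median 1.90, all 12 positive), with sums of 42.1 to 93.4 CPM in the 8-day controls and 146 to 332 CPM in the 3-month controls. Of 9 germinal centre B cell markers 4 were called higher and 0 lower (median 0.68), with sums of 55.5 to 64.5 CPM and 73.5 to 97.6 CPM. Neither sum overlapped between the cohorts. Other lists had negative medians. Of 10 crypt stem cell markers 5 were called lower and 1 higher (median -0.29), of 12 enterocyte markers 6 lower and 0 higher (median -0.44), and of 10 smooth muscle markers 4 lower and 0 higher (median -0.48, all 10 negative). Enterocyte markers summed to 23044 to 24403 CPM in the 8-day controls and 15276 to 19220.0 CPM in the 3-month controls, without overlap. Slbp was at 44.5, 45.1 and 45.2 CPM and 62.1, 67.0, 62.2 and 57.3 CPM (log2 fold change 0.47 ± 0.06 SE, adjusted p = 3.46e-05). Members with under 600 bases of exon had a median of 0.80 (18 of 24 higher), and the 88 other protein-coding genes of that length had 0.24 (29 higher). The 4 members with 2400 bases or more had a median of 0.53 (2 higher), and other protein-coding genes of that length had -0.04. Of the 16 other RNAs without a poly(A) tail, 7 were called higher, with a median of 0.37.

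A few low members varied by single libraries. Hist1h2ba, an H2B gene known from testis, had 8 counts in mutant replicate 1 of 3 months and 87 to 175 counts in the other libraries of that cohort, so its log2 fold change at 3 months was -0.37 ± 0.62 SE and 0.012 without that library. The same library had the lowest count of Hist1h4i, 138, against 360 to 634 in the others. The pseudogene Hist3h2bb-ps had 48, 46, 2 and 5 counts in the 3-month controls and 20, 6, 5 and 6 counts in the mutant-labelled ones, and it did not pass the filter at that time. Mutant replicate 1 held the lowest value for 29 of the 46 members tested at 3 months, against 16.7% of all genes, and control replicate 2 the highest for 24, against 18.7%.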

How the data were processed

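Whole-transcriptome libraries of mouse ileum were analysed from the count tables that the authors deposited, one for the 8-day and one for the 3-month samples. Values are whole read counts per Ensembl gene, not normalized. Per the submitters' processing notes, the tools were bcl2fastq 2.17.1.14, Bowtie 1.0.0, Bowtie2 2.1.0, TopHat2 2.0.10 and HTSeq 0.6.1 on build mm9; how multi-matching reads and strand were handled is not given in the sources used here. The labels name the molecule polyA RNA while the protocol names Ribo-Zero preparation.

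Symbols came from GENCODE M21. CPM values use TMM-scaled library sizes over all 15 libraries. edgeR 4.0.16 (R 4.3.3) quasi-likelihood tests, with filterByExpr (minimum count 10), were fitted within each time point for genotype and over all 15 libraries for the interaction and the control contrast, with Benjamini-Hochberg adjustment over all genes tested; SE is the log2 fold change divided by the square root of F. Alternatives were other scalings and filters, DESeq2 1.42.0, limma-voom (limma 3.58.1), a joint fit, Rfx6f/f controls only and leaving out each library. Scripts were tested on simulated data.

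Members and gene lists were chosen with earlier results of these data known. Genes named are the 12 most abundant members, members called, the 5 largest changes in each direction between control cohorts, the 2 most abundant of each class, and preset polyadenylated, testis and Hist3 members and reference genes. Other members named (Hist1h2ae, Hist1h2ag, Hist1h2bg, Hist1h2af, Hist2h2aa1, Hist2h2aa2, Hist2h3c1, Hist1h4m and Hist3h2bb-ps), and genes of the lists other than the reference genes, were chosen after their values were seen. Replicates are numbered in accession order. Counting error alone limits low members, since 3 counts correspond to 0.0566 to 0.115 CPM.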

Additional observations from a re-analysis of the deposited data

Results flagged for a closer look

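In 5 of 123 groups of 4 libraries looked at (named members and class sums), 1 library stood apart from the other three by a gap whose share of the group's range passed Dixon's critical value at 95%; chance gives about 1 group in 20. For Hist3h2ba in the 8-day libraries labelled mutant the share was 0.915, with replicate 4 at 1.90 CPM and the others at 1.42 to 1.46 CPM. For Hist1h4b in the same group it was 0.904, with replicate 4 at 29.0 CPM and the others at 18.9 to 19.9 CPM. For Hist1h2bc in the 3-month libraries labelled mutant it was 0.851, with replicate 1 at 119 CPM and the others at 87.2 to 91.9 CPM. For Hist1h2aa in the 3-month controls it was 0.844, which rests on 1 to 2 counts per library, under the floor of 3 counts. For Hist1h4i in the 3-month controls it was 0.834, with replicate 4 at 21.8 CPM and the others at 13.8 to 15.1 CPM.

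Hist3h2ba differed in its genotype effect between 8 days and 3 months by the interaction test (-1.74 on the log2 scale, adjusted p = 0.0487 by edgeR). The call was lost with limma-voom (adjusted p = 0.059), with Rfx6f/f controls only (0.156) and in 11 of 15 fits that left out 1 library. It was higher in all 4 libraries labelled mutant than in all 3 controls at 8 days and lower in all 4 than in all 4 controls at 3 months.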

How the results depend on the processing

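The 3-month members had a negative median in all fits (-0.35 to -0.24), but counts of calls moved. DESeq2 called 18 members and 2983 genes at 3 months, the joint fit of 15 libraries 3 members and 2271 genes, and Rfx6f/f controls only, with fewer samples, 0 members and 36 genes. At 8 days, 16 genes were called, against 27 without a filter, 178 with DESeq2 and 25 in the joint fit. The interaction called 141 genes, against 223 without a filter, 248 with at least 10 counts in every library, 1017 with DESeq2, 41 with limma-voom and 5 with Rfx6f/f controls only; limma-voom and Rfx6f/f controls only called 0 members, and with the latter 6 of 49 members and 2081 of 18199 genes had an unadjusted p under 0.05. In the control cohorts, 8093 genes were called and 5197 with Rfx6f/f controls only. Leaving out 1 library, with fewer samples, gave 8 to 200 genes (8 days), 391 to 1521 genes and 1 to 13 members (3 months), 10 to 749 genes and 0 to 1 members (interaction), 6214 to 8268 genes (cohorts), and an 8-day ratio of summed CPM of 0.962 to 1.11 (0.985 without control replicate 1 and 0.962 without mutant replicate 4, against 1.04). Signs turned for the 8-day median (-0.00058 and -0.084, without control replicate 1 and mutant replicate 4, range to 0.164), Hist1h1e at 8 days (-0.0229 and -0.0448, range -0.0448 to 0.156) and between cohorts (-0.0138 and -0.011, range -0.0138 to 0.106), and at 3 months for Hist1h2ba (0.0122, range from -0.882), Hist3h2a (0.015), Hist1h2br (-0.13, -0.046, -0.0145 and -0.0122, range to 0.18) and Hist1h2bc (-5.045e-05, -0.00245, -0.0129, -0.12, -0.0495, -0.0316 and -0.105, range to 0.0664); apart from the library left out, the cause was not tested. No paired analysis was possible because the labels carry no replicate numbers. Members under 10 counts in a library are limited by depth.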
